A study of Mus musculus with 12 samples.

Results

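Metallothioneins and zinc transporters were followed through the tumors of the study as a set of 5 genes, of the 38924 mouse genes counted: the metallothioneins Mt1, Mt2 and Mt3, the zinc exporter Slc30a1 and the zinc importer Slc39a14. They were taken by symbol, through their Ensembl identifiers, and the rule used no threshold on a measured value. All 5 were among the 16645 genes with enough reads to be tested. RNA had been sequenced from 12 pancreatic neuroendocrine tumors (PanNETs) of RIP1Tag2 mice on the C57Bl6 background, in which the rat insulin promoter drives the SV40 T antigen in pancreatic beta cells, so that every group carried the same transgene. There were 4 control tumors (saline), 4 sunitinib-treated tumors and 4 tumors treated with rapamycin plus sunitinib (R+S), and per the labels treatment was begun at 15.5 weeks of age and lasted 4 days. Sunitinib inhibits VEGF and PDGF receptors, and rapamycin inhibits mTOR. Tumors are named here by their group and the number in their label. The labels do not say which mouse each tumor came from. All 4 control tumors carried the same label prefix, as did 3 of 4 sunitinib-treated and 2 of 4 R+S-treated tumors, and whether a prefix marks a mouse or a batch is not stated, so the p-values measure the spread between these tumors.

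Metallothioneins are small cysteine-rich proteins that bind zinc and copper. Mt1 and Mt2 are made in most tissues and are induced by zinc through the metal-sensing transcription factor MTF-1, and also by glucocorticoids, whereas Mt3 is best known from the brain. Zinc leaves the cytosol through transporters of the SLC30 (ZnT) family and enters it through those of the SLC39 (ZIP) family. Slc30a1 (ZnT1) exports zinc across the plasma membrane and is itself an MTF-1 target, and Slc39a14 (ZIP14) imports zinc, manganese and iron. Pancreatic beta cells are rich in zinc, because Slc30a8 (ZnT8) loads it into the granules in which insulin is stored.

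Between 31872342 and 44215054 reads per tumor fell on genes. Values are given as normalized CPM, that is, reads of a gene scaled to a common library size, with library sizes adjusted by TMM. Sunitinib-treated tumor 6 stood apart from the other tumors. The mean log2 CPM of 9 beta cell markers was 4.91 in it, against 9.78 to 10.2 in the other sunitinib-treated tumors, 9.35 to 10.3 in the R+S group and 9.73 to 10.2 in controls. Its level of Pdx1, a transcription factor that defines beta cells, was 4.17 normalized CPM, whereas the other sunitinib-treated tumors had 263 to 328. In tumor 6 the mean log2 CPM of 10 glucocorticoid-responsive genes was 5.18, against 3.46 to 4.18 in the other sunitinib-treated tumors. That of 12 acute-phase and IL6-STAT3 genes was 3.29, against 2.04 to 2.55. The main results for sunitinib-treated tumors are therefore given with and without tumor 6. Markers of acinar cells, the enzyme-secreting cells of the exocrine pancreas, also differed between groups. At an edgeR adjusted p under 0.05, 16 of 17 were higher in sunitinib-treated and in R+S-treated than in control tumors. Of all tested genes, 1.93% and 1.55% were so. The mean log2 CPM of the markers was -2.22 to 1.96 in control, 8.25 to 9.92 in sunitinib-treated and 6.57 to 8.93 in R+S-treated tumors. All 9 endothelial markers were lower in each treated group than in controls, 8 of them at an edgeR adjusted p under 0.05. Of all tested genes, 2.55% were lower at that threshold in sunitinib-treated and 2.61% in R+S-treated tumors. In bulk RNA, fewer cells of a type and less RNA per cell cannot be told apart.

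The metallothionein genes lie side by side on chromosome 8 (GRCm38, plus strand), where Mt4, Mt3, Mt2 and Mt1 follow each other within 43.1 kb. Mt3 (ENSMUSG00000031760) spans chr8:94152607-94154146, Mt2 (ENSMUSG00000031762) spans chr8:94172664-94173568 and Mt1 (ENSMUSG00000031765) spans chr8:94179082-94180327, 5.51 kb beyond Mt2. Slc30a1 (ENSMUSG00000037434) lies at chr1:191906767-191913247 on the plus strand and Slc39a14 (ENSMUSG00000022094) at chr14:70303469-70351425 on the minus strand. None of the 5 shared exon sequence on its own strand with another gene, and none of the 50-base words of the Mt1, Mt2, Mt3 and Slc30a1 transcripts occurred in transcripts of other genes, so that the closely related metallothioneins could be counted apart. For Slc39a14 the shared part was 0.187%.

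The start regions of Mt1 and Mt2, whose levels moved together across tumors, and of their neighbor Mt3 are shown from RefSeq (GRCm38.p6), from 250 bases before the RefSeq start up to the base before the first annotated exon or start. Capitals mark the core letters of the metal response element that MTF-1 recognizes, searched as TGCACNC or TGCGCNC on both strands. The stretches are chr8:94178839-94179081 for Mt1, chr8:94172368-94172617 for Mt2 and chr8:94152357-94152606 for Mt3, all on the plus strand.
Mt1: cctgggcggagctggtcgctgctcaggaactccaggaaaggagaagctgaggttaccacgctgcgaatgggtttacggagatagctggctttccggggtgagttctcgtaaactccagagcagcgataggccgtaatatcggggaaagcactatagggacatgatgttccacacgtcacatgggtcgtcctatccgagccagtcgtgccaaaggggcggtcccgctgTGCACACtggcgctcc
Mt2: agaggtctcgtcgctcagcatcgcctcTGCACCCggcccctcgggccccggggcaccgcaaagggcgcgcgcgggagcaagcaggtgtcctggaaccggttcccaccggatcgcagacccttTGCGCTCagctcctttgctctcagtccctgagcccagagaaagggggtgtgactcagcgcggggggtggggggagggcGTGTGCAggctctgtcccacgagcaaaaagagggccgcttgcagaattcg
Mt3: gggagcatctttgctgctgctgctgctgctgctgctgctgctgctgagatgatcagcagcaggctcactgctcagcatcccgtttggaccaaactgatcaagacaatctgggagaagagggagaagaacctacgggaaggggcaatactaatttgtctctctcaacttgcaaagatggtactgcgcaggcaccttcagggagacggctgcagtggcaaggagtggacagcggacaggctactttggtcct

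Counted over the whole 300-base window, which runs 50 bases past the RefSeq start, the Mt2 window held 4 such matches, the Mt1 window 3, the Slc30a1 window 2 and the Mt3 window 1. Of these, 2 in Mt1, 1 in Mt2 and 1 in Mt3 lay past the stretches shown above. Sequence outside these windows was not searched, so the counts do not cover whole promoters. Of the 32851 RefSeq windows of this length, 25.7% held at least 1 match, 7.11% at least 2, 1.97% at least 3 and 0.517% at least 4. The core letters of the hypoxia response element, ACGTG or GCGTG on either strand, occurred at 2 places in the Mt1 window and at 2 in the Mt2 window, which 20.6% of windows matched or exceeded, at 1 place in the Slc30a1 window and nowhere in the Mt3 window. A match to these letters is a description of the sequence and was not measured as a bound site.

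Mt1 and Mt2 were abundant transcripts in these tumors, whereas the other 3 genes were expressed at middling levels. Per kilobase of annotated exon, Mt2 averaged 189 ± 59.4 normalized CPM (SD, n = 4) in control tumors and Mt1 averaged 162 ± 69.7, above 99.4% and 99.2% of the tested genes with a length. These 2 levels differed by less than the spread between tumors. The exon length used was 1.246 kb for Mt1, which is the whole span of the gene, and 0.588 kb for Mt2. Their order on this scale therefore rests on the annotated lengths. Slc30a8, the transporter of insulin granules, was higher still, at 461 ± 113 per kilobase. Mt3 followed at 8.78 ± 5.40, Slc30a1 at 7.18 ± 0.728 and Slc39a14 at 4.01 ± 0.320 per kilobase. Mt3 and Slc30a1 were within their spread of each other. The order of the lower genes depended on the length used: divided by the longest transcript in place of all annotated exons, Mt3 came to 17.5 and Slc39a14 to 8.26 per kilobase, with Slc30a1 at 7.18. In R+S-treated tumors the mean of Mt3 was the lowest of the 5, at 3.04 ± 1.54 per kilobase. Mt4, the metallothionein of stratified epithelia, had no read in any of the 12 tumors, which allows a level of up to 0.0641 to 0.0962 normalized CPM depending on the library, counting error only.

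**Figure D1:**
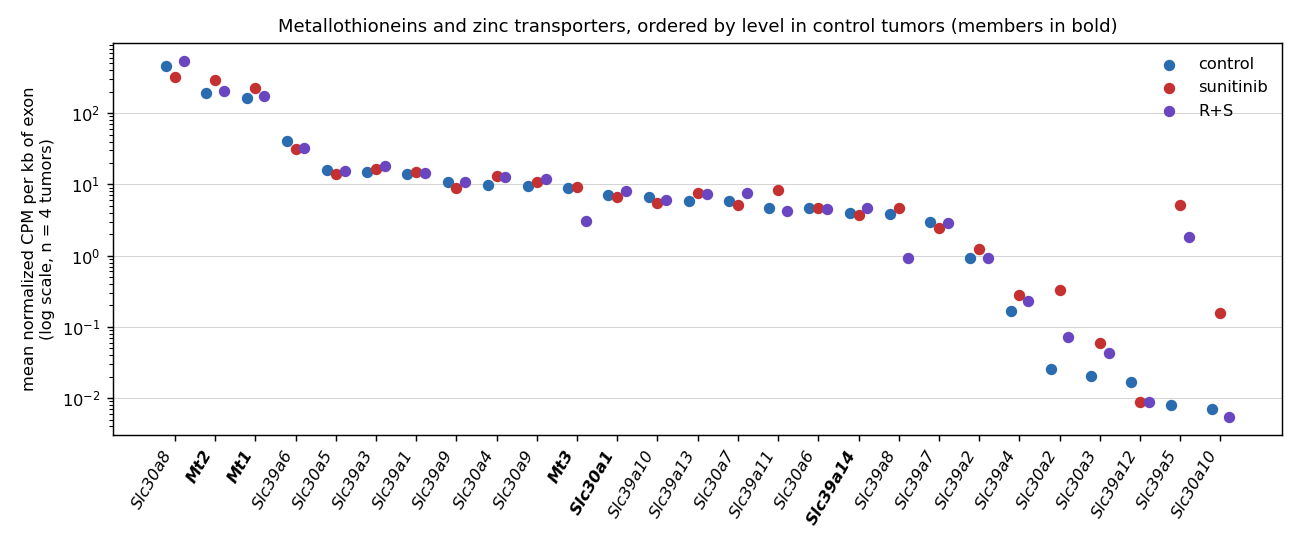
Mean normalized CPM per kilobase of annotated exon (log scale) of the 5 genes, in bold, and the 22 other SLC30 and SLC39 genes in control, sunitinib-treated and R+S-treated tumors (points, means of 4 tumors), ordered by the level in control tumors. Slc30a8, Mt2 and Mt1 lie above the other genes, with controls at 461, 189 and 162. The means of Slc39a5 and Slc30a2 lie higher in both treated groups than in controls. For Slc30a2 the R+S-treated and control tumors overlapped.

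The design asked how inhibition of the tumor vasculature, alone or with mTOR inhibition, altered the tumors. For these 5 genes, edgeR's quasi-likelihood test with Benjamini-Hochberg adjustment over all tested genes called 0 of 5 in each of the 3 comparisons, where the share of all tested genes called was 4.48% for sunitinib versus control, 4.16% for R+S versus control and 7.21% for R+S versus sunitinib. At an unadjusted p under 0.05, 1 of 5 passed in each comparison (Mt2 in the first, Mt3 in the other 2), against 19.5%, 20.1% and 30.4% of all tested genes. DESeq2 called 0, 0 and 1 of 5, where it called 9.06%, 10.4% and 19.5% of the genes it tested. The number of all tested genes called varied with single tumors, above all for R+S versus sunitinib, where 1200 genes were called but 1, 0 and 1 without R+S-treated tumors 4, 5 and 7. Without sunitinib-treated tumor 6, edgeR called 1 of 5, Mt2, in each of the 2 comparisons with sunitinib-treated tumors, where 5.3% and 10.1% of all tested genes were called.

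**Figure D2:**
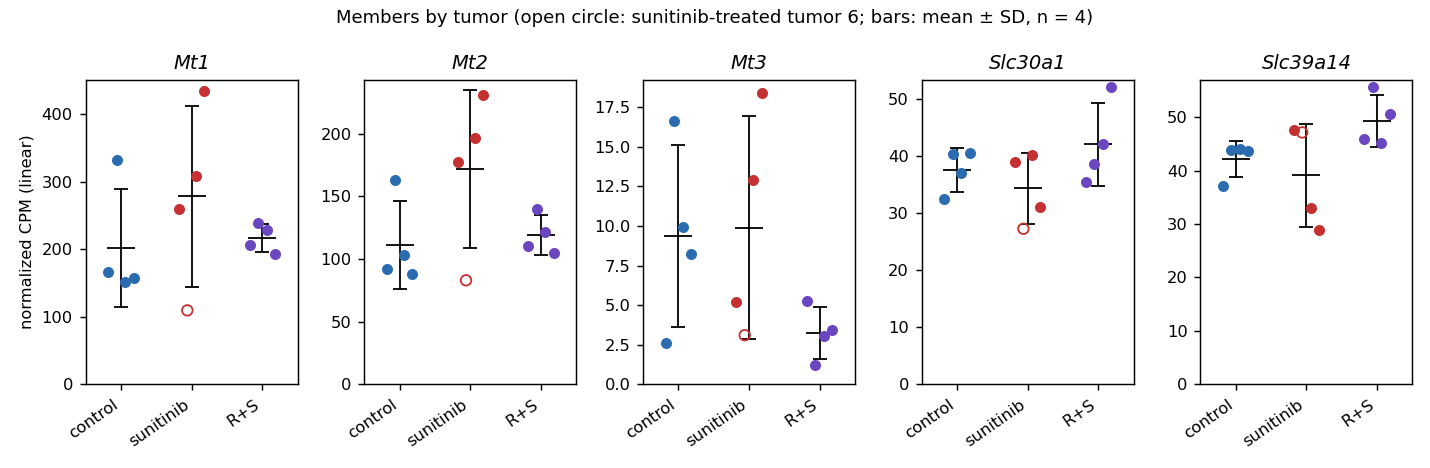
Normalized CPM (linear axes from 0) of Mt1, Mt2, Mt3, Slc30a1 and Slc39a14 in each tumor, with the mean and SD of 4 tumors per group as black bars. In sunitinib-treated tumor 6 (open circle) Mt1 was 109 and Mt2 82.9, below every other tumor, and the 4 R+S-treated tumors lie above the 4 control tumors for Slc39a14.

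Mt1, the metallothionein with the most reads, was measured at 166, 332, 152 and 158 normalized CPM in control tumors 1, 2, 3 and 4, at 259, 109, 308 and 435 in sunitinib-treated tumors 5, 6, 8 and 12, and at 207, 238, 228 and 192 in R+S-treated tumors 4, 5, 7 and 10. Control tumor 2 was high and sunitinib-treated tumor 6 low, and all 3 groups overlapped. The log2 fold change was 0.46 (SE 0.36, adjusted p = 0.507) for sunitinib-treated against control tumors, with a 95% interval from -0.32 to 1.25. For R+S-treated tumors it was 0.10 against control (adjusted p = 0.909) and -0.36 against sunitinib-treated tumors (adjusted p = 0.515). Leaving out sunitinib-treated tumor 6 moved the comparison of sunitinib-treated with control tumors to 0.73 (adjusted p = 0.166) and that of R+S-treated with sunitinib-treated tumors to -0.63 (adjusted p = 0.136).

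Mt2, its neighbor, separated most of the sunitinib-treated tumors from the rest. Control tumors 1, 2, 3 and 4 had 91.7, 163, 103 and 87.5 normalized CPM, sunitinib-treated tumors 5, 6, 8 and 12 had 177, 82.9, 196 and 230, and R+S-treated tumors 4, 5, 7 and 10 had 110, 140, 121 and 104. Of the sunitinib-treated tumors, 5, 8 and 12 lay above every control and every R+S-treated tumor, and tumor 6 lay below them all. For sunitinib versus control the log2 fold change was 0.63 (SE 0.28, 95% interval 0.01 to 1.25, unadjusted p = 0.0479, adjusted p = 0.251; exact permutation p = 0.229). Without tumor 6 it was 0.86 (SE 0.21) and passed the threshold (adjusted p = 0.0333). Between R+S-treated and sunitinib-treated tumors Mt2 differed by -0.53 (SE 0.28, adjusted p = 0.224), and by -0.76 (SE 0.21, adjusted p = 0.0429) without tumor 6. Over the 16 alternatives the adjusted p ranged from 0.0333 to 1.00 in the first of these comparisons and from 0.0429 to 0.458 in the second, and in each of them leaving out tumor 6 was the only one under 0.05. R+S-treated and control tumors differed by 0.10 (95% interval -0.52 to 0.72, adjusted p = 0.883), an interval that leaves room for a change of about the size seen with sunitinib.

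Mt3 was the least abundant of the 3 expressed metallothioneins, with 49 to 628 reads per tumor, and the most variable. It was measured at 2.63, 16.6, 9.94 and 8.26 normalized CPM in control tumors 1, 2, 3 and 4, at 5.21, 3.10, 12.9 and 18.4 in sunitinib-treated tumors 5, 6, 8 and 12, and at 5.24, 1.24, 3.05 and 3.44 in R+S-treated tumors 4, 5, 7 and 10. The control and sunitinib-treated tumors spread over much the same range, and 3 control and 2 sunitinib-treated tumors were above every R+S-treated tumor. The SD of log2 CPM of Mt3 within groups was 1.11, 1.17 and 0.86, larger than in 97.0%, 88.9% and 94.0% of tested genes. The fold change was 0.08 (SE 0.63, adjusted p = 0.957) for sunitinib-treated against control tumors. R+S-treated tumors had -1.53 against control (SE 0.65, 95% interval -2.95 to -0.11, unadjusted p = 0.0368, adjusted p = 0.214; exact permutation p = 0.114) and -1.61 against sunitinib-treated tumors (SE 0.65, 95% interval -3.03 to -0.19, unadjusted p = 0.0298, adjusted p = 0.125; exact permutation p = 0.143). DESeq2 gave the latter -1.63 with an adjusted p of 0.0466, the lowest of 16 alternatives, which reached up to 0.293. Without tumor 6 it was -1.90 (adjusted p = 0.0655).

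Slc30a1, the exporter at the plasma membrane, varied little. Its levels were 32.4, 40.4, 37.1 and 40.5 normalized CPM in control tumors 1, 2, 3 and 4, 38.9, 27.3, 40.2 and 31.1 in sunitinib-treated tumors 5, 6, 8 and 12, and 35.4, 38.7, 42.1 and 52.2 in R+S-treated tumors 4, 5, 7 and 10. All groups overlapped, with tumor 6 the lowest and R+S-treated tumor 10 the highest. The log2 fold changes were -0.13 (SE 0.16, 95% interval -0.48 to 0.22, adjusted p = 0.685) for sunitinib-treated against control, 0.16 (SE 0.16, 95% interval -0.19 to 0.51, adjusted p = 0.605) for R+S-treated against control and 0.29 (SE 0.16, 95% interval -0.06 to 0.64, adjusted p = 0.234) for R+S-treated against sunitinib-treated tumors. Without tumor 6 the first and the last were -0.03 and 0.20. These intervals exclude a change by a log2 of 1 in either direction.

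Slc39a14, the importer, was measured at 37.2, 43.9, 44.2 and 43.8 normalized CPM in control tumors 1, 2, 3 and 4, at 47.6, 47.2, 33.0 and 28.9 in sunitinib-treated tumors 5, 6, 8 and 12, and at 45.9, 55.7, 45.3 and 50.6 in R+S-treated tumors 4, 5, 7 and 10. Every R+S-treated tumor was above every control tumor, by a small margin, while the sunitinib-treated tumors fell on both sides of the controls. The difference between R+S-treated and control tumors was 0.22 on the log2 scale (SE 0.16, 95% interval -0.13 to 0.58). It did not pass the test over all genes (adjusted p = 0.474), although the exact permutation p was 0.0286, the smallest that 4 tumors against 4 can give. Such separation was common in this comparison, where 23.5% of tested genes had groups that did not overlap. In the other comparisons 0 of 5 genes separated the groups, against 10.9% (sunitinib versus control) and 18.6% (R+S versus sunitinib) of tested genes. Sunitinib-treated tumors differed from control by -0.11 (SE 0.16, adjusted p = 0.743), and R+S-treated tumors differed from sunitinib-treated tumors by 0.33 (SE 0.16, adjusted p = 0.190). Without tumor 6 these values were -0.21 (adjusted p = 0.507) and 0.44 (adjusted p = 0.0983).

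**Figure D3:**
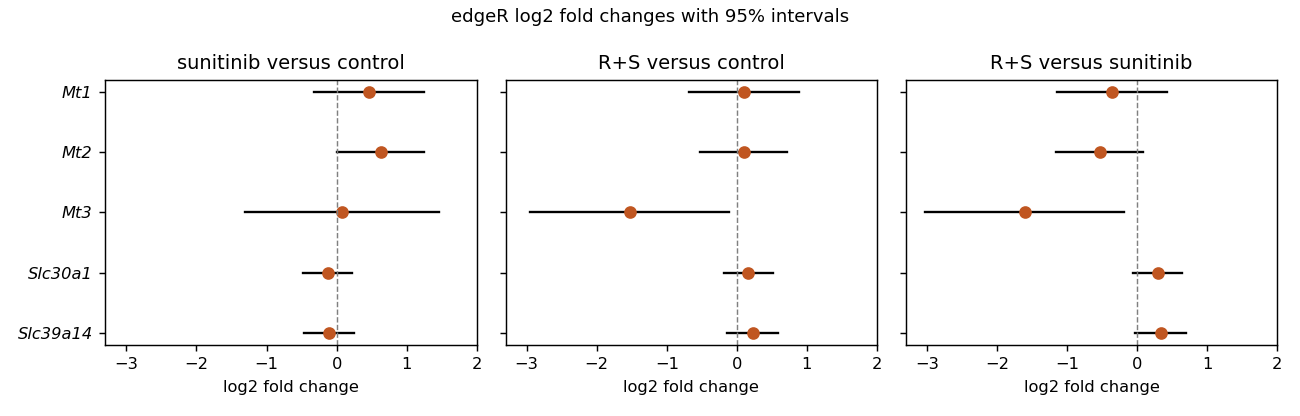
Log2 fold changes of the 5 genes (points) with 95% intervals from the edgeR fit of 12 tumors (lines) in the 3 comparisons. The intervals of Slc30a1 and Slc39a14 stay within 1 of no change, while that of Mt3 reaches from -3.03 to -0.19 between R+S-treated and sunitinib-treated tumors.

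Across the 12 tumors Mt1 and Mt2 varied together. The Pearson correlation of their log2 CPM was 0.94, it was 0.97 for the deviations from the group means and 0.95 without tumor 6. The ratio of Mt1 to Mt2 reads stayed between 1.32 and 2.04, while the 2 genes together took between 0.0192% and 0.0650% of all reads on genes. Mt3, 18.5 kb from Mt2, followed them less closely, with r = 0.50 for Mt1 and 0.50 for Mt2. Slc39a14 ran against Mt3 (r = -0.66), Mt1 (r = -0.49) and Mt2 (r = -0.49). Slc30a1 showed r = 0.20 with Mt1, 0.08 with Mt2 and 0.35 with Slc39a14. Without tumor 6 these values of Slc30a1 were -0.21, -0.22 and 0.57, and for the deviations from the group means 0.35, 0.38 and 0.06. Each point is 1 library, shared by the genes compared, so these correlations are descriptions. Among about 10386 tested genes with a mean log2 CPM of at least 3, the genes closest in pattern to Mt1 were Acot13 (r = 0.95), Mt2 and Tmem203 (r = 0.94), those closest to Mt2 were Mt1, Kcmf1 (r = 0.92) and Mcoln1 (r = 0.91), and those close to Mt3 included Arf1 (r = 0.94) and Uchl5 (r = 0.93). For Slc30a1 they were Klhl21 (r = 0.95), Dnajc3 (r = 0.94) and Dnajc16 (r = 0.94), and for Slc39a14 they were Map3k1 (r = 0.97), Zfp715 (r = 0.97) and Cast (r = 0.97).

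**Figure D4:**
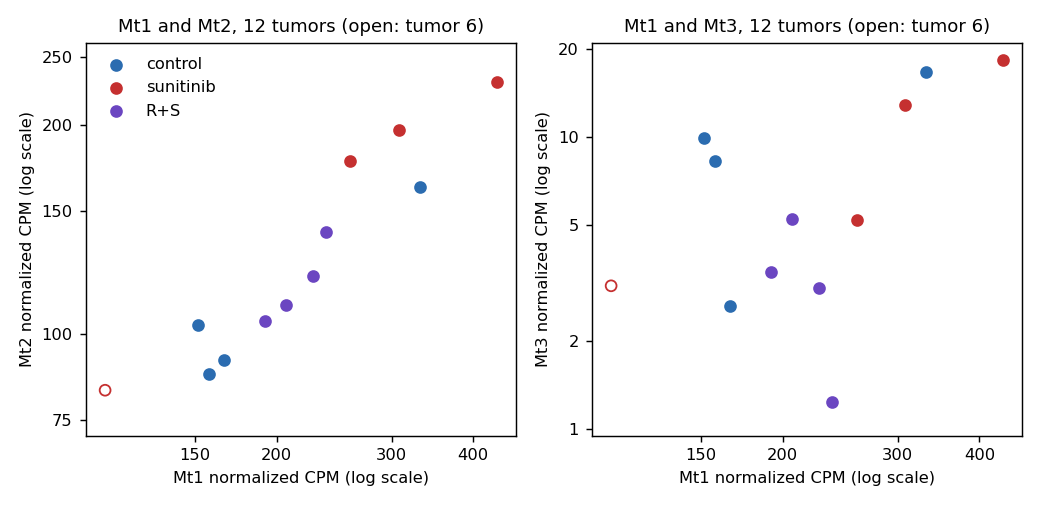
Normalized CPM of Mt2 (left) and Mt3 (right) against that of Mt1 in the 12 tumors, on log axes, colored by group with sunitinib-treated tumor 6 open. Mt1 and Mt2 fall along a line (r = 0.94 on the log2 scale), whereas Mt3 scatters (r = 0.50).

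Of the other zinc transporters, few passed the test. Among the 7 tested of 9 other SLC30 exporters, 1 was higher and 0 lower with sunitinib than in controls, where 1.93% of all tested genes were higher and 2.55% lower. For R+S versus control 0 exporters were called (1.55% of all tested genes higher, 2.61% lower), with 4 under an unadjusted p of 0.05 (20.1% of all tested genes) and 1, Slc30a9, called by DESeq2 (10.4% of all genes it tested). For R+S versus sunitinib 1 exporter was higher and 1 lower (2.63% and 4.58% of all tested genes). Of the 12 tested of 13 other SLC39 importers, 1 was higher and 0 lower in each treated group than in controls. For R+S versus control DESeq2 called 2 importers higher, Slc39a3 and Slc39a5 (10.4% of all genes it tested in either direction). For R+S versus sunitinib 0 importers were called by edgeR, with 4 under an unadjusted p of 0.05 (30.4% of all tested genes), while DESeq2 called 1 higher and 3 lower (19.5% of all genes it tested in either direction). The median log2 fold change of the exporters was 0.02, 0.35 and 0.16 in the 3 comparisons and that of the importers 0.21, 0.02 and -0.04, where all tested genes had 0.03, 0.01 and -0.02. Without sunitinib-treated tumor 6, Slc39a8 (ZIP8), an importer of zinc and manganese, was called lower in R+S-treated than in sunitinib-treated tumors and Slc30a2 was no longer called. Slc39a8 was singled out here after its values had been seen: it had 7.10, 29.7, 41.4 and 39.7 normalized CPM in control tumors 1, 2, 3 and 4, 26.4, 2.02, 63.6 and 50.7 in sunitinib-treated tumors 5, 6, 8 and 12, and 7.74, 2.35, 5.00 and 13.3 in R+S-treated tumors 4, 5, 7 and 10 (log2 fold change R+S versus sunitinib -2.33, SE 0.86, adjusted p = 0.100).

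The importer called was Slc39a5 (ZIP5), which had 1, 0, 2 and 0 reads in control tumors 1, 2, 3 and 4, but 12.7, 14.2, 13.5 and 4.78 normalized CPM in sunitinib-treated tumors 5, 6, 8 and 12 and 2.66, 5.25, 1.22 and 7.01 in R+S-treated tumors 4, 5, 7 and 10. The ratio of summed reads, scaled for library size, was 616 (95% counting interval 210 to 2988) for sunitinib-treated against control tumors. For R+S-treated against control tumors it was 220 (95% counting interval 74.9 to 1069). These intervals cover counting error only, not the spread between tumors. The edgeR log2 fold changes were 9.01 (95% interval 7.10 to 10.9, adjusted p = 8.87e-05) and 7.52 (95% interval 5.67 to 9.37, adjusted p = 0.000502). The exporter Slc30a2 (ZnT2) had 1 to 7 reads per control tumor and was 3.63 higher on the log2 scale in sunitinib-treated tumors (SE 0.63, adjusted p = 0.00517), at 1.12, 1.80, 1.16 and 0.546 normalized CPM in tumors 5, 6, 8 and 12. In R+S-treated tumors 4, 5, 7 and 10 it was 0.139, 0.278, 0.136 and 0.470, or -2.16 against sunitinib-treated tumors (SE 0.56, adjusted p = 0.0429), a call that was lost without sunitinib-treated tumor 6 (adjusted p = 0.0558) or 8 or without any of the R+S-treated tumors (adjusted p up to 0.118). Slc39a5 was above every control tumor in each treated tumor, as was the mean of the acinar markers. Slc30a2 was so in each sunitinib-treated tumor, but in only 2 of the R+S-treated tumors. Its log2 fold change for R+S versus control was 1.48 (SE 0.64, edgeR adjusted p = 0.221). With the acinar marker mean as a covariate, the fold changes of Slc39a5 and Slc30a2 against control were 2.51 and 2.62 for sunitinib-treated tumors (adjusted p = 1.00 for each). However, 94.1% of the variance of that mean lay between these groups, so that treatment and acinar content cannot be told apart.

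Slc30a7 (ZnT7), which moves zinc into the Golgi, was 0.52 higher in R+S-treated than in sunitinib-treated tumors (SE 0.13, adjusted p = 0.0352, exact permutation p = 0.0286). It had 93.9, 78.3, 73.7 and 87.4 normalized CPM in R+S-treated tumors 4, 5, 7 and 10, all above the 59.2, 49.3, 66.3 and 56.8 of sunitinib-treated tumors 5, 6, 8 and 12, while control tumors had 56.9 to 74.1. The call was lost without sunitinib-treated tumor 12 or any of the R+S-treated tumors (adjusted p up to 0.0987). Slc30a8, the granule transporter, had 660, 794, 1035 and 1149 normalized CPM in control tumors 1, 2, 3 and 4, 951, 180, 845 and 595 in sunitinib-treated tumors 5, 6, 8 and 12, and 979, 695, 1268 and 1383 in R+S-treated tumors 4, 5, 7 and 10. Its low value belonged to tumor 6, in which the beta cell markers were low as well, and its fold change of -0.50 in sunitinib-treated against control tumors (adjusted p = 0.534) became -0.19 without that tumor. Mtf1, the metal sensor, had 38.7, 53.3, 54.4 and 57.2 normalized CPM in control tumors 1, 2, 3 and 4, against 45.6, 26.2, 47.6 and 29.2 in sunitinib-treated tumors 5, 6, 8 and 12 and 41.8 to 61.4 in R+S-treated tumors. Its difference between sunitinib-treated and control tumors was -0.45 (SE 0.21, unadjusted p = 0.0566, adjusted p = 0.270), and -0.32 without tumor 6.

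Among genes of pathways that act on metallothioneins or share their metals, edgeR called 2 for sunitinib versus control, 0 for R+S versus control and 3 for R+S versus sunitinib, where 4.48%, 4.16% and 7.21% of all tested genes were called. Of 12 copper-handling genes 1 was called, Atp7b, a copper-exporting ATPase, which was 2.23 higher in sunitinib-treated than in control tumors (SE 0.45, adjusted p = 0.0139; 0.0553 and 0.0516 without control tumors 3 and 4). Of 10 glucocorticoid-responsive genes 1 was called, Sesn1, a stress-induced inhibitor of mTOR signaling. It was 0.65 higher in R+S-treated than in sunitinib-treated tumors (SE 0.14, adjusted p = 0.0277, and up to 0.0971 without R+S-treated tumors 4, 5 or 7). The median log2 fold change of this list was -0.53 in that comparison, but -0.08 without sunitinib-treated tumor 6. With tumor 6 included, DESeq2 called Sesn1 higher and 3 genes (Per1, Sgk1 and Tsc22d3) lower in that comparison. Among 11 tested of 12 acute-phase and IL6-STAT3 genes, the transcription factor Cebpb was 1.16 higher in sunitinib-treated than in control tumors (SE 0.27, adjusted p = 0.0307, and up to 0.0998 without control tumors 3 or 4 or sunitinib-treated tumor 12). Between R+S-treated and sunitinib-treated tumors the serum amyloid gene Saa3 was lower (-4.79, SE 1.17, adjusted p = 0.0369) and the receptor Il6ra higher (1.89, SE 0.50, adjusted p = 0.0452). Each of these calls was lost without sunitinib-treated tumor 12 or any of the R+S-treated tumors, with adjusted p up to 0.115 for Saa3 and 0.114 for Il6ra. Saa3 had only 2 to 6 reads per R+S-treated tumor, and 29, 157, 7 and 209 reads in sunitinib-treated tumors 5, 6, 8 and 12. Over the 3 lists, 10, 5 and 16 genes had an unadjusted p under 0.05 in sunitinib versus control, R+S versus control and R+S versus sunitinib (19.5%, 20.1% and 30.4% of all tested genes), and DESeq2 called 5, 1 and 10 (9.06%, 10.4% and 19.5% of all genes it tested). In R+S versus sunitinib, 5 of the genes DESeq2 called were acute-phase and IL6-STAT3 genes, 2 higher and 3 lower. Without sunitinib-treated tumor 6 the edgeR calls changed. For sunitinib versus control, 1 copper-handling gene was higher, and 1 acute-phase and IL6-STAT3 gene was higher and 2 lower (5.3% of all tested genes called). For R+S versus sunitinib, 1 copper-handling gene was lower and 1 glucocorticoid-responsive gene was higher and 2 lower. Of the acute-phase and IL6-STAT3 genes, 1 was higher and 1 lower (10.1% of all tested genes called).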

How the data were processed

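The authors deposited, per tumor, raw counts of reads on each gene as whole numbers without normalization, from stranded poly(A) libraries. The submitters' processing notes name cutadapt 1.2.1, TopHat2 2.0.9, HTSeq 0.5.4p3 and GRCm38. Summary lines at the end of each table (reads on no gene were 11.1% to 18.8% per tumor) were left out. Groups came from the labels. Symbols, lengths and coordinates came from GENCODE M21, and 37607 of 38924 identifiers matched.

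Counts of all 12 tumors were fitted in edgeR 4.0.16 (R 4.3.3; limma 3.58.1) with TMM, filterByExpr (minimum count 10, minimum total 15), robust quasi-likelihood F-tests and 3 contrasts. P-values were adjusted by Benjamini-Hochberg over 16645 genes, threshold 0.05. Log2 CPM used a prior count of 2. Two-sided exact permutation tests ran over 70 arrangements of 4 tumors against 4. No pair of tumors of a group differed by as little as sampling noise. PCR copies were not marked, so counting intervals cover counting error only.

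The 5 genes, the gene lists and the tests were chosen with earlier results of these data known. Named beside the 5 genes are Slc30a8, Mtf1 and Mt4, up to 4 genes per comparison and list with the smallest adjusted p under 0.05, and the 3 genes most correlated with each of the 5, apart from 1 that is not reported here. Slc39a8 and genes called by DESeq2 alone were named after their values had been seen. RefSeq gave start windows for 4 of the 5 genes. Alternatives were DESeq2 1.42.0, other scalings, filters and sample sets, an acinar covariate, treated tumors of one label prefix summed (controls were left unsummed), longest transcripts, and each tumor left out. Tumors of a label prefix never spanned groups, so prefix and treatment cannot be told apart.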

Additional observations from a re-analysis of the deposited data

Results flagged for a closer look

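Of 15 sets of 4 tumors (5 genes in 3 groups), 2 held a tumor whose gap in log2 CPM to its nearest neighbor was a larger part of the range than Dixon's 95% critical value, which chance gives in about 1 of 20 sets. Mt1 in control tumors gave a gap of 0.883 of the log2 range, from control tumor 2 with 332 normalized CPM against 152 to 166 in the others. Slc39a14 in control tumors gave a gap of 0.949 of the log2 range, from control tumor 1 with 37.2 normalized CPM against 43.8 to 44.2 in the others. Without control tumor 2, the log2 fold change of Mt1 between sunitinib-treated and control tumors was 0.81, and without control tumor 1 that of Slc39a14 between R+S-treated and control tumors was 0.17 (edgeR, adjusted p = 0.269 and 0.658).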

How the results depend on the processing

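Of 240 values of the 5 genes under alternative settings, 228 kept their direction and their side of the threshold, 3 passed it and 9 changed sign. Leaving out sunitinib-treated tumor 6 raised the number of genes called from 0 to 1 in sunitinib-treated against control and in R+S-treated against sunitinib-treated tumors, and DESeq2 raised it to 1 in the latter; over all leave-one-out fits the number was 0 to 1. The sign changes were in small differences or in fits with the acinar covariate. With that covariate, Slc30a1 became 0.10 in sunitinib-treated and Mt3 3.45 in R+S-treated against control tumors. For sunitinib-treated against control tumors Mt3 became -0.23, -0.07 and -0.41 without control tumor 1 and sunitinib-treated tumors 8 and 12, and Slc39a14 became 0.0096 without tumor 12. For R+S-treated against control tumors Mt1 became -0.015 and -0.00057 without control tumors 3 and 4, and Mt2 -0.00061 without control tumor 4. Leave-one-out ranges that crossed 0 were -0.41 to 0.51 for Mt3, -0.21 to 0.0096 for Slc39a14, -0.015 to 0.45 for Mt1 and -0.00061 to 0.34 for Mt2. Over all tested genes, the numbers called in the 3 comparisons were 745, 693 and 1200 in the reported fit, 1477, 1688 and 3045 by DESeq2, 380, 2557 and 3 with only the 8 tumors compared, 0, 1 and 353 with the acinar covariate, 408, 476 and 1305 with at least 10 counts in every tumor and 676, 494 and 501 without a filter. They ranged from 440 to 902, 292 to 621 and 0 to 2861 when single tumors were left out. Per longest transcript, control levels became 17.5 (Mt3) and 8.26 (Slc39a14) because of the shorter length. No paired analysis was possible because the labels do not pair tumors of different groups.

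Among the other named genes, the acinar covariate turned the signs of Slc30a8 (0.77), Mtf1 (0.016), Slc30a7 (0.18) and Saa3 (-0.15) in sunitinib-treated, and of Mtf1 (0.36), Sesn1 (-0.34) and Cebpb (-0.13) in R+S-treated against control tumors, and ended every call against control. Mtf1 in R+S-treated tumors ranged from -0.18 to 0.017 (0.0078 without control tumor 4, 0.017 without R+S-treated tumor 4). Of 8 leave-one-out fits each, Slc39a5 kept its call against control in 8 for each treated group and Slc30a2 in 8 for sunitinib-treated tumors. Atp7b lost it without control tumors 3 and 4, and Cebpb without these or sunitinib-treated tumor 12. Between the treated groups, Slc30a2 kept its call in 2 (without sunitinib-treated tumors 5 and 12), Slc30a7 in 3 (5, 6 and 8), Sesn1 in 5 (lost without R+S-treated tumors 4, 5 and 7), and Saa3 and Il6ra in 3 each (5, 6 and 8). The cause of these changes was not tested. That covariate also ended the calls between the treated groups for Slc30a2, Slc30a7, Saa3 and Il6ra. Between the treated groups 44.3% of the variance of the acinar marker mean lay between groups, against 94.1% for sunitinib-treated and 91.5% for R+S-treated against control tumors. Without sunitinib-treated tumor 6, the number of other zinc transporters called was 2 in sunitinib versus control and 2 in R+S versus sunitinib. This setting was added after the data were seen.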
